A study of Mus musculus with 95 samples.

Results

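Plac8 encodes a small cysteine-rich protein and was followed as 1 of the 53465 gene entries in the count table, over all 95 libraries of the series. It was chosen by its measured level, low in stem cells at steady state and higher in stem cells after transplant, so those differences are given below as descriptions with no test. The genes that followed Plac8 across the stem cell libraries were found by a fixed rule of rank correlation and are described at the end. RNA of sorted bone marrow cells was sequenced in bulk with SMART-Seq v4, a kit for small amounts of RNA. The cells came from B6.SJL mice aged 8 to 12 weeks. The labels name 3 populations, HSC (hematopoietic stem cells), HPC-1 and HPC-2 (progenitor populations). Each was taken from untreated mice, called steady state, and from mice that had received 900 cGy of irradiation and 8000 transplanted LSK cells (lineage-negative, Sca-1+, Kit+) 3, 4, 5, 6, 8, 10, 13 or 16 weeks before. There were 8 HSC, 8 HPC-1 and 7 HPC-2 libraries at steady state and 3 libraries per population and week. The labels give 1 gate, LSK CD48- CD150+, for all 3 populations. Whether the replicates of a group are different mice is not stated, and each p below therefore measures only the spread between these libraries. The number of mice and of cells behind a library was not given in the sources used here.

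Plac8 belongs to a family of proteins that share a cysteine-rich domain, and its name comes from placenta. In blood it is abundant in granulocytes, monocytes and lymphocytes, and mice that lack it clear some bacteria poorly. Stem cells at the top of the blood hierarchy give rise to multipotent progenitors, which divide more and carry the first RNA of the blood lineages.

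The gene (ENSMUSG00000029322) lies on the minus strand of chromosome 5, from 100553725 to 100572245 in GRCm38, and GENCODE M21 lists 4 transcripts of 373 to 1224 bases for it. No other annotated gene overlaps it, so reads of an antisense partner do not enter its counts under that annotation. RefSeq (GRCm38.p6) places its transcripts at 2 start sites, and both promoter windows are shown because the gene-level counts sum RNA from both and cannot tell them apart. Each window runs from 250 bases before the start site to 50 after it, in the direction of transcription. Capitals mark the RUNX core letters TGTGGT on either strand (ACCACA on the strand printed) and the CCAAT box.
Plac8 promoter 1, chr5:100572156-100572455, minus strand: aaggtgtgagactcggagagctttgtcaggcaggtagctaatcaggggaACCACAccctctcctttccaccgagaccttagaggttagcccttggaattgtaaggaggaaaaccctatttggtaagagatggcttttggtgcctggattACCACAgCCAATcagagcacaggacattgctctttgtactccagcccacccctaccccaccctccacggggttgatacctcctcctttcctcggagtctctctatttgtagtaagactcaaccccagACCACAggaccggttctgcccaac
Plac8 promoter 2, chr5:100563047-100563346, minus strand: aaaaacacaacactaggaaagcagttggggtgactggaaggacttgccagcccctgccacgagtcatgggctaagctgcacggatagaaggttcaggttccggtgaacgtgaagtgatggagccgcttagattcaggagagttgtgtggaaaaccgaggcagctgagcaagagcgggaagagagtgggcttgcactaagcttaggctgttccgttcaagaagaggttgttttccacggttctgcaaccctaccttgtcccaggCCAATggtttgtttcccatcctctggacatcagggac
RUNX proteins and CCAAT-binding factors both act in blood progenitors. Promoter 1 held 3 matches to the RUNX letters, at -201, -101 and 26 bases from the start site, and 1 CCAAT box at -94. Of the 32841 promoter windows in the same RefSeq table, 16.8% held at least 1 RUNX match and 0.183% held at least 3. Promoter 1 also held 2 matches to the PU.1 letters GAGGAA, which 28.3% of windows hold at least once. Promoter 2 held no RUNX match, 1 CCAAT box (37.4% of windows hold one) and 1 match to the C/EBP letters TTGCNNAA (10.8% of windows). Neither window held the GATA letters AGATAA, the E-box CACGTG or the interferon-stimulated response element. Such matches describe letters and show no binding.

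Total counts per library ran from 3551908 to 8492759, and Plac8 had between 267 and 26209 counts, so counting error was small beside the spread between libraries. Detected genes ran from 3827 to 15697, and 12 libraries had fewer than 10000 (5 HSC, 7 HPC-2). In 6 pairs, 2 libraries with different labels had nearly the same counts (chi-square per degree of freedom 1.24 at the lowest, against 15.1 for the next pair), for example the HPC-1 and HPC-2 libraries numbered 7 at steady state. Within such a pair Plac8 was nearly equal, for example 2456 and 2429 CPM (counts relative to a TMM-scaled library total) in those libraries. Both libraries of each such pair were kept in the main fits. Without them, 1574 genes in place of 151 were called by edgeR between HSC and HPC-2 at steady state and 1544 in place of 3 between the progenitors, while the 155 and 142 genes called in HPC-2 against steady state and over its weeks went to 0. Because these are bulk samples, more cells with Plac8 and more Plac8 RNA per cell cannot be told apart.

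At steady state Plac8 separated HSC from both progenitor populations. In the 8 HSC libraries its level ran from 49.8 to 346 CPM with a median of 172. In the 8 HPC-1 libraries it ran from 1574 to 7466 CPM with a median of 2822, and in the 7 HPC-2 libraries from 431 to 3674 with a median of 1144. Every HSC library was below every progenitor library. The HPC-1 mean was 19.7 times and the HPC-2 mean 9.02 times the HSC mean. In the edgeR fit the log2 difference of HSC from HPC-1 was -4.15 (SE 0.46) and that from HPC-2 was -3.15 (SE 0.44). Beside these descriptions, 0.573% of 11348 genes were called between HSC and HPC-1 and 1.33% between HSC and HPC-2, where a gene is called at an adjusted p (Benjamini-Hochberg) under 0.05. Those counts, 65 and 151 genes, ran from 7 to 121 and from 4 to 590 as single libraries were left out.

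Per kilobase of the longest transcript, Plac8 was among the most abundant messages of the progenitors. It ranked 7 of 21942 protein-coding genes in HPC-1 at steady state (2798 CPM per kilobase) and 22 in HPC-2 (1284 CPM per kilobase). In HSC it ranked 736 at steady state (142 CPM per kilobase) and 192 over the transplanted libraries (579 CPM per kilobase). Even the lowest HSC library had 267 counts of it.

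Between the progenitors the steady-state difference did not pass the test. Plac8 was higher in HPC-1 than in HPC-2 by 0.99 on the log2 scale (SE 0.42), with an adjusted p of 0.479 in edgeR, where 0.0264% of genes were called. HPC-2 steady-state replicate 1 had the fewest detected genes of the series (3827) and the highest Plac8 level of its group (3674 CPM). Without that library the difference was 1.49, and over the leave-one-out fits it ran from 0.76 to 1.49. Without the near-identical libraries it was 1.25 (adjusted p of 0.1009 in edgeR).

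**Figure D1:**
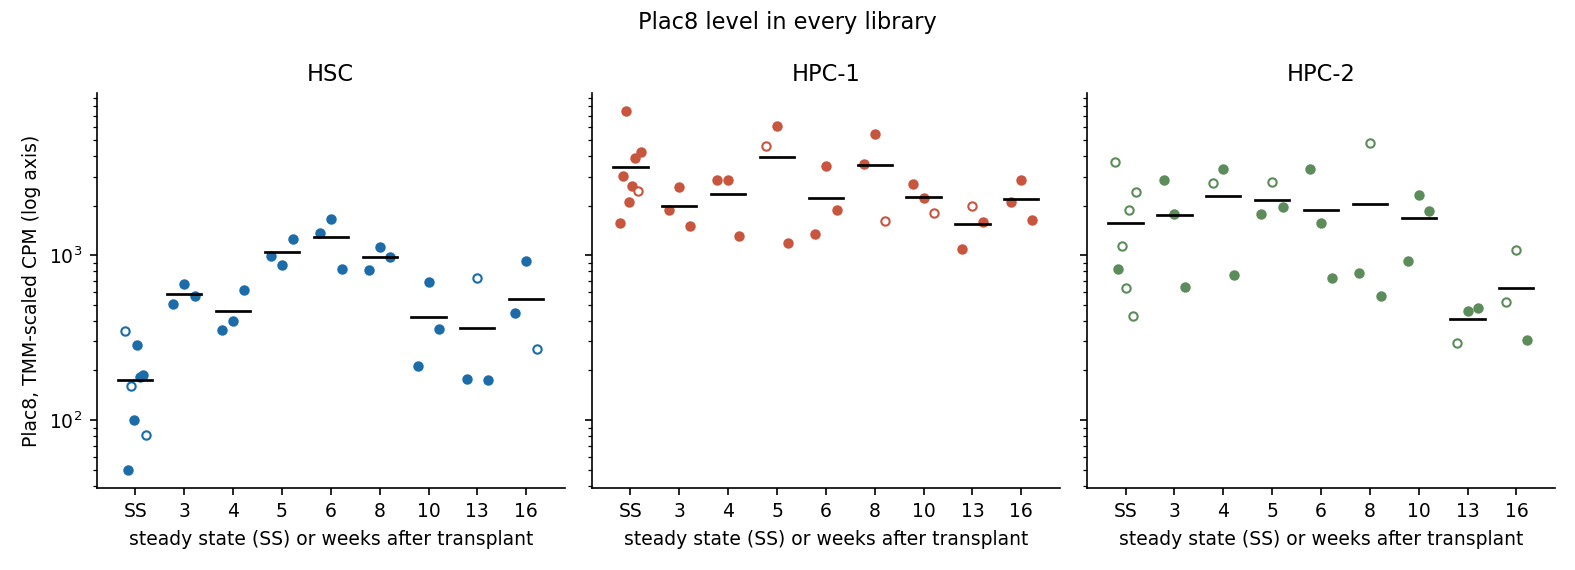
Plac8 level (TMM-scaled CPM, log axis) in each of the 95 libraries, by population and by steady state (SS) or weeks after transplant. Each point is a library, each line the group mean, and open points are libraries with fewer than 10000 detected genes or in a near-identical pair. On this scale HSC at weeks 3 to 8 lie above all 8 HSC steady-state libraries, which run from 49.8 to 346 CPM. With RLE scaling or library totals, 4-week replicates 1 and 2 lie below steady-state replicate 1.

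After transplant the HSC level was higher, and in TMM-scaled CPM it followed an arc over the weeks. At 3 weeks the 3 HSC libraries had 507, 673 and 570 CPM, and at 4 weeks they had 354, 401 and 616. At 5 weeks the values were 994, 873 and 1253 CPM, at 6 weeks 1369, 1672 and 829.5, and at 8 weeks 817, 1121 and 977. In TMM-scaled CPM all 15 libraries of weeks 3 to 8 were above all 8 steady-state libraries, at the closest 354 against 346. By library totals or RLE scaling, steady-state replicate 1 (412 or 516 CPM) was above 4-week replicates 1 and 2 (362 and 385, or 390 and 363). The 9 libraries of weeks 5 to 8 were above the 6 of weeks 3 and 4 in TMM-scaled CPM. With RLE scaling the 3-week libraries (645, 781 and 997) overlapped them (657 to 1430). The short-transcript share, described below, was 5.82% to 11.0% at weeks 3 and 4 and 11.1% to 17.7% at weeks 5 to 8. Its part was not tested. At 10 weeks the libraries had 213, 693 and 359 CPM, at 13 weeks 179, 724 and 176, and at 16 weeks 449, 921 and 270. Of these 9 late libraries 5 were above the steady-state range and 4 lay within it, so the late groups overlapped both steady state and the earlier weeks. The high library at 13 weeks was replicate 2, with 6628 detected genes.

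In means, HSC stood at 174 ± 101.1 CPM at steady state (SD, n = 8), 520 ± 124 at weeks 3 and 4 (n = 6), 1101 ± 286 at weeks 5 to 8 (n = 9) and 443 ± 274 at weeks 10 to 16 (n = 9). These are 2.99, 6.32 and 2.54 times the steady-state mean. Ordered by their means, the HSC groups ran from 6 weeks (1290 ± 427 CPM, SD, n = 3) through 5, 8, 3, 16, 4, 10 and 13 weeks to steady state. Of the 8 neighbouring pairs in that order, 7 had overlapping ranges, and only 8 and 3 weeks (972 and 583 CPM) differed by more than the larger SD. The fitted difference between the mean of the 8 week groups and steady state was 1.88 on the log2 scale (SE 0.32), and it is a description. In that fit 5.31% of 14209 genes were called, and 0.0985% were called higher. With the transplanted libraries as 1 group, where fewer genes were tested, 0 of 11863 genes were called by edgeR (409 at an unadjusted p under 0.05), and the Plac8 difference was 2.04 (SE 0.38). DESeq2 with the 8 groups kept apart called 27 genes higher and 541 lower and gave the Plac8 difference as 1.62 (SE 0.32). Without the near-identical libraries the fitted difference was 2.10 (SE 0.33), and without the libraries of few genes 1.91 (SE 0.31).

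Over the HSC weeks the fitted slope was -0.27 per doubling of weeks (SE 0.18), with an adjusted p of 0.608 in edgeR, and 0.0774% of genes were called. Leaving out the 13-week replicate 2 gave -0.43. A straight slope does not measure a rise and then a fall, so this test does not speak to the arc above. Plac8 was chosen with its HSC levels known, which limits this p and those of the HSC slope differences below.

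HPC-1 stayed at a high level throughout. Its transplanted libraries ran from 1088 to 6069 CPM with a median of 2054, and 19 of the 24 lay inside the steady-state range while 5 lay below it. The highest week mean was that of 5 weeks, whose libraries had 4633, 6069 and 1181 CPM, and the lowest that of 13 weeks, with 1088, 1988 and 1596. All 8 neighbouring pairs of HPC-1 groups in order of their means overlapped. The mean of the 8 weeks against steady state was -0.48 on the log2 scale (SE 0.25), with an adjusted p of 0.372 in edgeR, and 1.39% of 13717 genes were called. With the transplanted libraries as 1 group it was -0.44 (SE 0.26), and 2 genes were called. Without the steady-state replicate 3, the highest library of the series at 7466 CPM, this difference was -0.22. The HPC-1 slope was -0.12 per doubling of weeks (SE 0.16, adjusted p of 0.989 in edgeR), and 0.0219% of genes were called.

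HPC-2 varied widely, and its lowest group means were those of 13 and 16 weeks. At 3 to 10 weeks its libraries ran from 569 to 4805 CPM. At 13 weeks they had 294, 460 and 476 CPM and at 16 weeks 519, 1077 and 305, against 431 CPM in the lowest steady-state library. The mean of the 8 weeks against steady state was -0.10 (SE 0.39, adjusted p of 1 in edgeR), where 1.15% of 13436 genes were called. With the transplanted libraries as 1 group it was 0.10 (SE 0.44), and 0 of 11564 genes were called by edgeR (812 at an unadjusted p under 0.05; DESeq2 with the groups kept apart called 1136). The slope was -0.81 per doubling of weeks (SE 0.24), which missed the threshold with an adjusted p of 0.0589 in edgeR. The median slope of all genes in that fit was also negative, at -0.34. In that comparison 1.06% of genes were called, all of them lower with time, and the slope stayed negative in each leave-one-out fit, from -0.96 to -0.68, with adjusted p from 0.0412 to 0.185. It was called without steady-state replicate 1, steady-state replicate 6 or 8-week replicate 2. With the replicate number as a block the slope was -0.76 and the adjusted p 0.0487. It was -0.53 with RLE scaling (adjusted p of 0.149 in edgeR) and -0.53 in DESeq2 (adjusted p of 0.133). Without the near-identical libraries it was -0.79 (adjusted p of 0.107 in edgeR), and without the libraries of few genes -1.01 (adjusted p of 0.134). The short-transcript share, described below, moved with it: at 13 and 16 weeks it was 5.55% to 8.27% in all 6 HPC-2 libraries, against 5.06% to 17.0% at 3 to 10 weeks.

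Over the transplanted libraries Plac8 was higher in HPC-1 than in HPC-2, with a log2 difference of 0.82 (SE 0.22) and an adjusted p of 0.00773 in edgeR, where 8.23% of 15708 genes were called (7.03% higher in HPC-1 and 1.2% lower). The HSC level in these weeks is part of what chose the gene, so its differences from the progenitors are descriptions with no test. The log2 difference of HSC from HPC-1 was -1.90 (SE 0.22), in a comparison where 7.91% of genes were called (2.78% higher in HSC and 5.14% lower). The log2 difference of HSC from HPC-2 was -1.08 (SE 0.22), where 8.84% were called (6.02% higher in HSC and 2.81% lower).

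Week by week, the gap between HSC and HPC-1 was narrowest at 6 weeks, where the HPC-1 mean was 1.73 times the HSC mean. Every HSC library lay below every HPC-1 library at steady state and in all weeks but 5 and 6, which is 7 of the 9 times. For HPC-2 the same held at 4 of the 9 times (steady state, 4, 5 and 10 weeks). At 13 weeks the HPC-2 mean was 1.14 times the HSC mean, and that HSC mean rests on replicate 2 at 724 CPM, a library with 6628 detected genes. The other 2 HSC libraries (176 and 179 CPM) lay below all 3 HPC-2 libraries (294 to 476), and the HSC mean without replicate 2 was 177. The slopes of HSC and HPC-1 differed by -0.11 (SE 0.27, adjusted p of 1 in edgeR, 0% of genes called, with 838 at an unadjusted p under 0.05 and 950 called by DESeq2), and those of HSC and HPC-2 by 0.62 (SE 0.27, adjusted p of 0.140), where 12.2% of genes were called and 11.3% had the higher slope in HSC. The median of the difference between HSC and HPC-2 slopes over all genes was 0.41. With RLE scaling this difference for Plac8 was 0.18 (adjusted p of 0.890 in edgeR), as in DESeq2 (adjusted p of 0.629).

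Plac8 moved with a property of the libraries, the share of counts in short transcripts. This share is the percent of counts of 6350 well-measured protein-coding genes that fell in the 352 genes whose longest transcript is under 1000 bases, and Plac8, at 1224 bases, is not among them. It ran from 4.90% to 18.3% over the libraries. Across the 32 HPC-1 libraries its correlation with the Plac8 level was 0.93 (Spearman; Pearson 0.92; permutation p 1e-05 for both, the smallest that the permutations can give, and 3e-05 adjusted). Across the 31 HPC-2 libraries it was 0.84 (Pearson 0.85, adjusted permutation p 3e-05 for both). Without the 2 libraries farthest from the median share, Pearson r was 0.91 and 0.83. Between libraries of the same group the Spearman correlation was 0.97 in HPC-1 and 0.83 in HPC-2. In HSC it was 0.32 (Pearson 0.30; adjusted permutation p 0.110 and 0.134). These p values are adjusted over 15 relations. The mitochondrial share of counts moved the same way, with a Spearman correlation with Plac8 of 0.87 in HPC-1, 0.73 in HPC-2 and 0.13 in HSC.

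**Figure D2:**
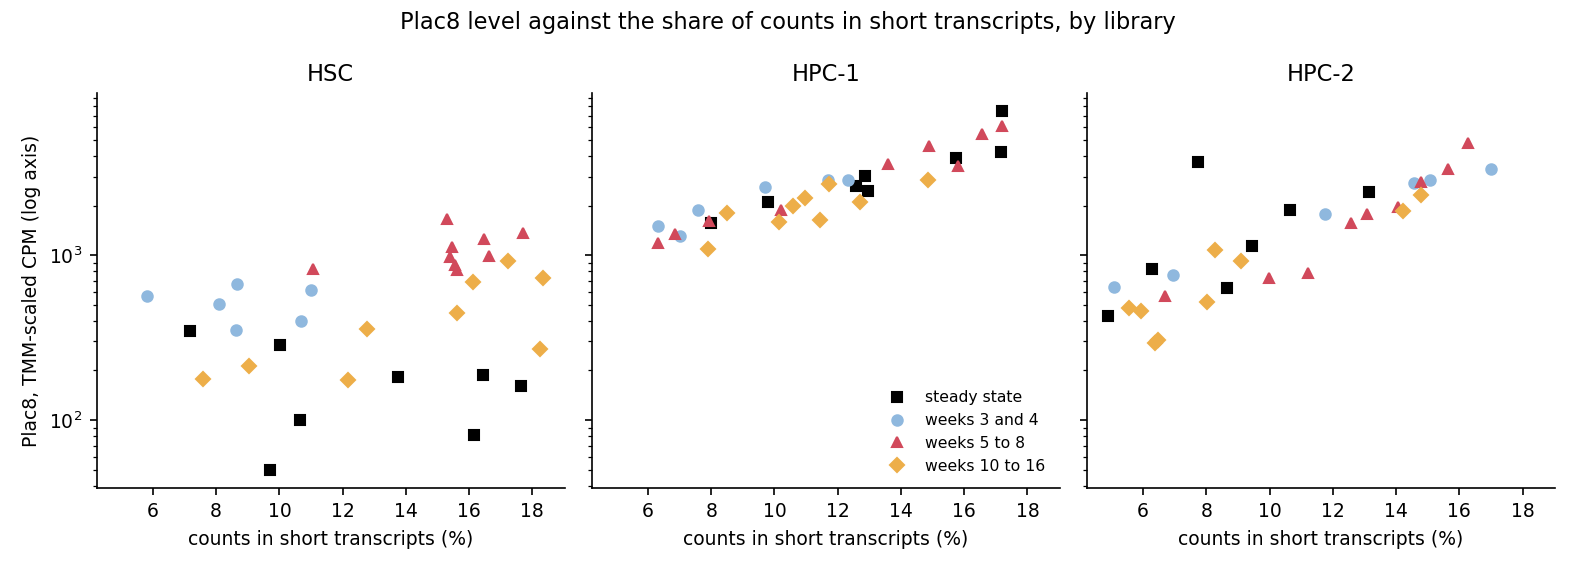
Plac8 level (TMM-scaled CPM, log axis) against the percent of counts in short transcripts, 1 point per library, marked by steady state or span of weeks. HPC-1 and HPC-2 form a rising band (Spearman 0.93 and 0.84), while HSC libraries of weeks 5 to 8 lie above HSC steady-state libraries of the same share.

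In HSC the share was 7.16% to 17.6% at steady state, 5.82% to 11.0% at weeks 3 and 4, 11.1% to 17.7% at weeks 5 to 8 and 7.57% to 18.3% at weeks 10 to 16. Among HSC libraries with a share of 12% or more, the 4 at steady state had 81.3 to 188 CPM of Plac8 and the 8 of weeks 5 to 8 had 817 to 1672. Among those under 12%, the 4 at steady state had 49.8 to 346 CPM and the 6 of weeks 3 and 4 had 354 to 673. The 1 library of weeks 5 to 8 under 12% had 829.5 CPM. At weeks 10 to 16 the 2 libraries under 12% had 179 and 213 CPM and the 7 at 12% or more had 176 to 921, and both ranges overlapped that of steady state at the same share. With the share as a covariate the HSC difference from steady state was 1.76 (SE 0.33), against 1.88 without it.

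In the progenitors the covariate changed more. The HPC-1 difference from steady state went from -0.48 to 0.02 with an SE of 0.075 in place of 0.25 (adjusted p of 0.987 in edgeR). The HPC-1 slope went from -0.12 to -0.27 (SE 0.046) and passed the test, with an adjusted p of 0.0107. In HPC-2 the difference from steady state went from -0.10 to -0.80 (SE 0.25, adjusted p of 0.157), and the slope went from -0.81 to -0.21 (SE 0.16, adjusted p of 0.789). The difference of slopes between HSC and HPC-2 turned from 0.62 to -0.50 (SE 0.15, adjusted p of 0.0490). The 3 population differences over the weeks were as large or larger: -2.37 (SE 0.12), -1.46 (SE 0.11) and 0.91 (SE 0.11). The covariate was chosen after the data were seen, and what sets the share was not tested.

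**Figure D3:**
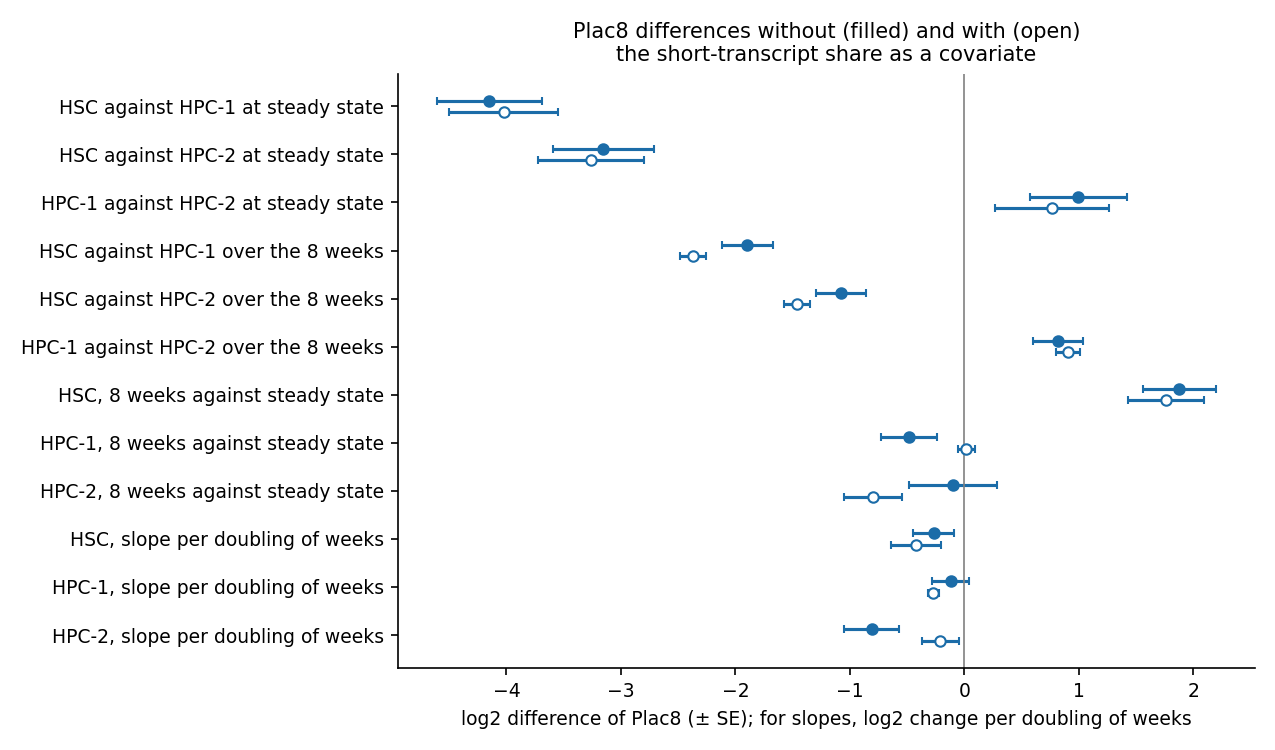
Fitted log2 differences of Plac8 (± SE) in 12 comparisons, without (filled) and with (open) the short-transcript share as a covariate; the 2 differences between slopes are not drawn. For slopes the axis is the log2 change per doubling of weeks. The HSC difference from steady state is 1.88 and 1.76, while the HPC-1 difference from steady state goes from -0.48 to 0.02.

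The 4 genes of the sort give the populations beside Plac8. Cd48, whose protein marks cells that have left the stem cell compartment, had 17.0 ± 24.6 CPM in HSC at steady state (SD, n = 8), 1258 ± 596 in HPC-1 (n = 8) and 539 ± 417 in HPC-2 (n = 7). Slamf1, which encodes CD150, had 67.7 ± 57.6, 0.642 ± 1.24 and 25.5 ± 39.5 CPM in the same order. So Cd48 RNA was present in the libraries labelled HPC-1 and HPC-2, although the labels give CD48- for all 3 populations. Over the weeks, Cd48 was lower in HSC than in HPC-1 (log2 difference -5.42, SE 0.61, adjusted p of 2.38e-09 in edgeR) and than in HPC-2 (-4.19, SE 0.58, adjusted p of 8.68e-07).

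Within each progenitor population the libraries with more Plac8 also had more Cd48. The Spearman correlation of the 2 genes was 0.86 in HPC-1 and 0.88 in HPC-2 (Pearson 0.87 and 0.89, and 0.85 and 0.87 without the 2 libraries farthest from the median; adjusted permutation p 3e-05 for each). Given the short-transcript share, the partial correlation was 0.52 and 0.61. Ly6a, which encodes Sca-1, gave 0.60 and 0.86 (adjusted permutation p 0.000675 and 3e-05), and 0.50 and 0.68 given the share. In HSC, where Cd48 had a count in 24 of 32 libraries, the correlation with Cd48 was 0.35 (adjusted permutation p 0.0850) and with Ly6a 0.49 (adjusted permutation p 0.0109; Pearson 0.34, adjusted permutation p 0.0810). Kit gave -0.30 in HSC, -0.22 in HPC-1 and -0.29 in HPC-2 (adjusted permutation p 0.136, 0.243 and 0.136). Slamf1 passed in HPC-1, where 10 of 32 libraries had a count of it (-0.48, adjusted permutation p 0.0109; 0.09 in HSC and -0.22 in HPC-2), and given the share the HPC-1 correlation was 0.15. In HSC, Cd48 stood at 43.1 ± 39.8 CPM at weeks 5 to 8 (SD, n = 9), against a Plac8 mean of 1101, and in HPC-1 at these weeks Cd48 stood at 1131 ± 517 (n = 9) with a Plac8 mean of 3243. The part of admixed progenitors in the HSC level was not tested.

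Other genes of progenitor and stem cell states give the setting of the HSC to HPC-1 difference over the transplanted libraries. Their lists were written from general knowledge with earlier results of these data known. The counts for these lists, here and against HPC-2, are therefore descriptions and no test of a list. Of 18 multipotent progenitor genes, 17 were called lower in HSC than in HPC-1 and 0 higher, beside 5.14% lower and 2.78% higher of all genes tested, with a median of -2.45 against -0.17 over all genes. They included Cd34 (-3.21) and Flt3, a receptor of lymphoid-primed progenitors, which had a count in 9 of 24 HSC and 24 of 24 HPC-1 libraries. Of 19 granulocyte-monocyte priming genes tested, 12 were lower and 1 higher, among them Mpo (-6.57), an enzyme of neutrophil granules, and Cebpa, a myeloid transcription factor with a count in 3 of 24 HSC and 21 of 24 HPC-1 libraries. Of 24 stem cell identity genes, 15 were higher and 0 lower, for example Mllt3 (3.94) and Meis1 (1.42), and of 14 megakaryocyte genes tested 13 were higher and 0 lower, led by Pf4 (6.30). All the genes named here passed the test (adjusted p under 0.05 in edgeR). No log2 difference is given for Flt3 and Cebpa, since HSC week groups without a count leave it to the prior count of the fit.

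Against HPC-2 the pattern around Plac8 was narrower. Of the 18 multipotent progenitor genes, 3 were lower in HSC (Cd48, Nkg7 and Lgals1) and 1 was higher (Cd53), beside 2.81% lower and 6.02% higher of all genes tested, with a median of -0.28 against 0.07 over all genes. Nkg7, a granule gene, differed by -1.66 and Lgals1, which encodes galectin-1, by -1.61. Cd53 had a count in 22 of 24 HSC and 16 of 24 HPC-2 libraries, and 1 HPC-2 week group had none. Its means were 77.5 CPM in HSC and 78.0 in HPC-2 (medians 56.2 and 9.29), so its call depends on the prior count of the fit. Of 20 mitosis genes 13 were lower in HSC, with a median of -1.38, and of 24 stem cell identity genes 11 were higher and 1 lower. Plac8 was lower in HSC in both comparisons.

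Markers of mature cells gave the following sums in HSC. The summed level of 9 T and NK cell markers was 0 to 21.8 CPM at HSC steady state and 0 to 142.5 at weeks 5 to 8, with Cd3e, Cd8a, Trbc1 and Ncr1 at 0 in all of these libraries. The 7 mature B cell markers summed to 0 to 688 CPM and 25.8 to 165, and the 10 monocyte and macrophage markers to 0 to 492.9 and 0.208 to 450.4. The 9 neutrophil markers, of a cell type that also expresses Plac8, summed to 0 to 5805 CPM at steady state, 0.177 to 12121 at weeks 5 to 8 and 0 to 7148 at weeks 10 to 16. Those ranges overlapped. Over the 32 HSC libraries the Spearman correlations of the 9 neutrophil markers with Plac8 ran from -0.11 (Mmp8) to 0.18 (Ngp), with 0.14 for S100a8, a defining neutrophil gene. The part of neutrophil RNA in the Plac8 level was not tested. The megakaryocyte genes summed to 1425 to 2270 CPM at HSC steady state and 2112 to 6960 at weeks 5 to 8, and they include Pf4, which is one of the genes that followed Plac8.

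The other members of the family were silent in these cells. Cnfn, which encodes cornifelin of the skin barrier, had no count in any of the 95 libraries, and Plac8l1 had a count in 1 HPC-1 library. On chromosome 5 the nearest protein-coding genes are Cops4 (5922 bases away, a subunit of the COP9 signalosome) and Lin54 (53086 bases, a subunit of a cell cycle repressor complex) on one side. On the other side lie Coq2 (82478 bases, an enzyme of ubiquinone synthesis) and Hpse (107239 bases, heparanase). Median levels over the HSC, HPC-1 and HPC-2 libraries were 294, 360 and 316 CPM for Cops4 and 63.1, 75.3 and 80.3 for Coq2. For Lin54 they were 10.7, 19.6 and 19.5 CPM. Over the transplanted libraries Cops4, Lin54 and Coq2 missed the test in the 3 population comparisons (adjusted p of at least 0.185 in edgeR, log2 differences from -0.63 to 0.22). Hpse was rare, with a median of 6.50 CPM in HPC-1 and 0 in the others, and had a count in 17 of the 24 transplanted HPC-1 libraries, 7 of those of HSC and 6 of those of HPC-2. It was lower in HSC than in HPC-1 (adjusted p of 0.00183 in edgeR) and higher in HPC-1 than in HPC-2 (adjusted p of 0.00148).

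The genes most like Plac8 were sought among 8205 genes with a symbol and a mean of at least 10 CPM over the 32 HSC libraries, by the Spearman correlation of log2(CPM + 1) with that of Plac8. Over all genes ranked the median correlation was -0.02 and 90% lay between -0.36 and 0.42. The correlations in HSC chose the genes, so they are a description with no p, and their points share the weeks and the library properties given above. The 12 that followed Plac8 most closely were Lgals1 (0.74), Gm15658 (0.72), Hoxaas3 (0.71), Tex30 (0.70), Gm13841 (0.67), Tmem167 (0.66), Gm32051 (0.66), Pf4 (0.64), Rpl29 (0.64), Slc6a13 (0.64), Pfdn1 (0.63) and Slc35b1 (0.63). The next gene, AI504432, stood at 0.63 as well. Among the 6 that ran opposite were Rbpms (-0.68), Dpp4 (-0.64), Galm (-0.62), 4833418N02Rik (-0.61) and Txnip (-0.61), and the next was Ctsb (-0.60).

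The levels below are of genes chosen by their correlation with Plac8 over these libraries, so a like course is part of the choice. Lgals1, which encodes galectin-1, had 45.2 ± 9.05 CPM at HSC steady state (SD, n = 8) and 68.0 ± 37.3 at weeks 3 and 4 (n = 6). It had 123 ± 44.9 at weeks 5 to 8 (n = 9), its highest, and 55.1 ± 45.8 at weeks 10 to 16 (n = 9). Pf4, a chemokine of platelet granules that HSC also express, had 435 ± 231, 995 ± 432, 1942 ± 1075 and 1177 ± 882 CPM at these times. Tex30 had 187 ± 106 CPM at steady state and 483 ± 172 at weeks 5 to 8. Hoxaas3, an RNA antisense to the Hoxa cluster, had 2.43 ± 3.36 and 24.5 ± 14.9 CPM, and Rpl29, a ribosomal protein gene, 321 ± 39.9 and 536 ± 75.5. Hoxaas3 is annotated as antisense and ribosomal protein genes have processed copies elsewhere, and the strand setting of the counting was not given in the sources used here, so both levels are uncertain. Gm13841 is annotated as a processed pseudogene and has the same limit.

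Txnip, an inhibitor of glucose uptake that is high in resting stem cells, went the other way, with 300.2 ± 133 CPM at HSC steady state (SD, n = 8) and 89.6 ± 36.0 at weeks 5 to 8 (n = 9). Rbpms, an RNA-binding protein gene, had 148 ± 65.9 and 79.6 ± 23.5. Dpp4, a surface peptidase, had a count in 6 of 8 libraries at steady state and in 2 of 9 at weeks 5 to 8.

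The ranking changed with its settings. When the group means were taken out, 2 of the 12 remained among the first 100 genes, though all 12 correlations stayed positive (0.09 to 0.50). Over the transplanted HSC libraries alone 6 remained, and without the libraries of few genes 6. By Pearson correlation 10 remained, and all 12 remained with RLE scaling, without the near-identical libraries or given the short-transcript share. The longest transcripts of the 11 with an annotated length had a median of 1360 bases, against 3128 over the genes ranked.

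**Figure D4:**
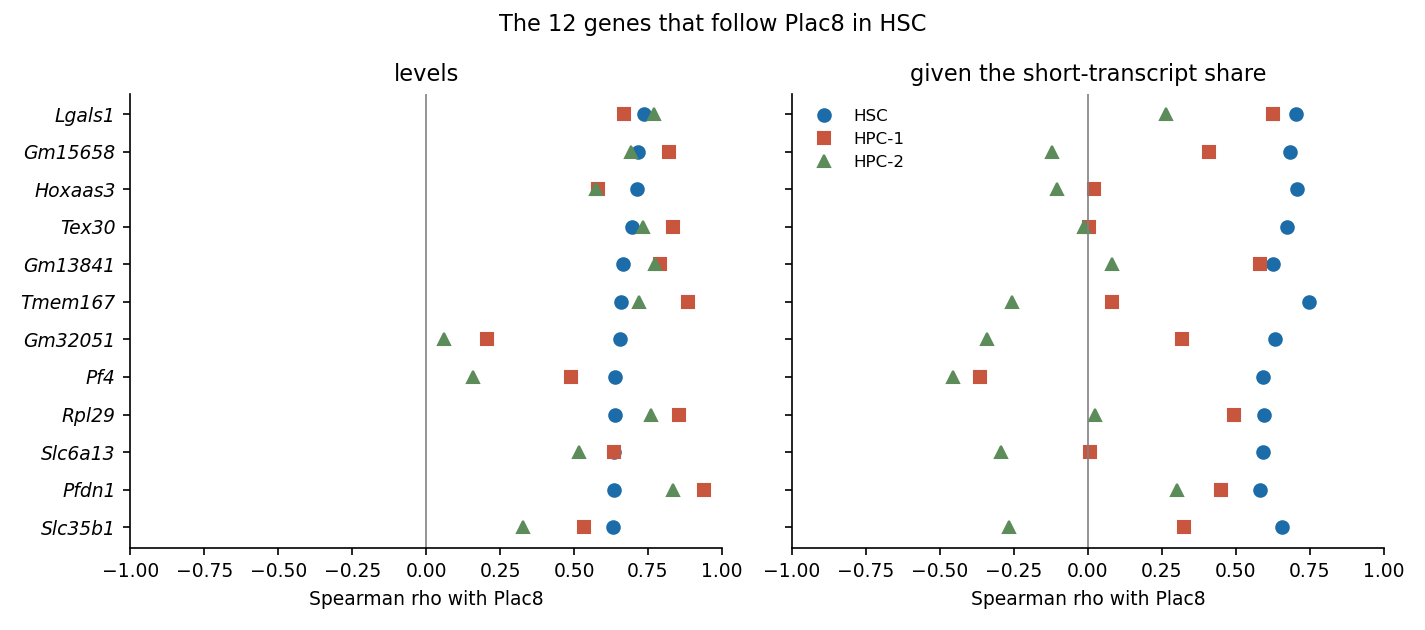
Spearman correlation with Plac8 of the 12 genes that follow it in HSC, in each population (left), and the partial correlation given the short-transcript share (right). The HSC values chose the genes. Pfdn1 reaches 0.94 in HPC-1 and 0.83 in HPC-2 on the left and 0.45 and 0.30 on the right.

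The progenitor libraries were not used in that choice and served as a check. This check was not fully separate in HPC-2, where 13-week replicate 1 was nearly identical to HSC steady-state replicate 1, a library used to choose. Without the near-identical libraries the 12 correlations in HPC-2 ran from 0.23 (Gm32051) to 0.79 (Pfdn1). In HPC-1 all 12 correlations were positive and 11 passed the test, with a median of 0.73. In HPC-2 all 12 were positive and 9 passed, with a median of 0.71 (Spearman, permutation p adjusted over 36 relations, threshold 0.05). The background was high, since 15.6% of all ranked genes in HPC-1 and 15.8% in HPC-2 had a correlation over 0.5. Of the 12, all but Gm32051 and Pf4 were over 0.5 in HPC-1, and all but Gm32051, Pf4 and Slc35b1 in HPC-2. The median of all ranked genes was -0.13 in HPC-1 and 0.03 in HPC-2. The share of all ranked genes that would pass the test was not taken, so the 11 and 9 that passed have no like share beside them. The limit of 0.5 is stricter than the test, since Pf4 passed in HPC-1 at 0.49. Pfdn1, a subunit of the prefoldin chaperone, gave 0.94 and 0.83 (adjusted permutation p 3.6e-05 for both, the smallest that the permutations can give; Pearson 0.88 and 0.81). Tmem167, a small protein of the secretory pathway, gave 0.88 and 0.72, and Rpl29 0.86 and 0.76. Lgals1 gave 0.67 and 0.77 (adjusted permutation p 0.000111 and 3.6e-05; Pearson 0.66 and 0.66, and 0.62 and 0.62 without the 2 libraries farthest from the median). For Tmem167 in HPC-2 the Pearson correlation was 0.23 (adjusted permutation p 0.281).

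Some followers did not carry over. Gm32051 gave 0.20 in HPC-1 and 0.06 in HPC-2 (adjusted permutation p 0.314 and 0.751). Pf4 gave 0.49 in HPC-1 (adjusted permutation p 0.00772) and 0.16 in HPC-2 (adjusted permutation p 0.448), and Slc35b1 0.54 and 0.33 (adjusted permutation p 0.00322 and 0.1004). Of the 6 opposite genes, Txnip held in both populations, with -0.62 in HPC-1 and -0.66 in HPC-2 (adjusted permutation p 0.000381 and 0.000288; Pearson -0.66 and -0.70). Galm passed in HPC-1 (-0.45, adjusted permutation p 0.0167), with a Pearson r of -0.40 that was -0.22 without the 2 libraries farthest from the median.

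The partial correlations of the followers with Plac8, given the short-transcript share, were also taken in the progenitors. The median of the 12 partial correlations was 0.32 in HPC-1 and -0.11 in HPC-2. Lgals1 kept 0.62 in HPC-1 and 0.26 in HPC-2, Gm13841 0.58 and 0.08, and Rpl29 0.49 and 0.02. Tex30 had 0.0046 and -0.013. Txnip kept -0.46 and -0.43. In HSC the same step left the 12 followers at 0.58 to 0.75. The same HSC libraries chose the genes, and Plac8 correlated with the share at only 0.32 there. These HSC values therefore cannot be compared with those of the progenitors.

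The tested comparisons give each follower's own differences. None of the 12 was called in the HPC-1 or HPC-2 comparison with steady state or in the 3 slopes, where between 0.0219% and 1.39% of all genes were called. The rule that chose the followers asked for a mean of at least 10 CPM in HSC, so calls higher in HSC are not independent of the choice. Between HSC and HPC-1 over the weeks, 4 of the 12 were higher in HSC (Pf4, Gm32051, Slc6a13 and Tex30), beside 2.78% of all genes. Lgals1 was lower, beside 5.14% of all genes, with a log2 difference of -2.06 (SE 0.36, adjusted p of 3.83e-05 in edgeR). Between HSC and HPC-2, Pf4 and Pfdn1 were higher and Lgals1 was lower (-1.61, SE 0.36, adjusted p of 0.00161 in edgeR). Of all genes 6.02% were called higher and 2.81% lower there. Of the 12 log2 differences from HPC-1, 10 were positive, with a median of 0.43 against -0.17 over all genes, whereas Plac8 and Lgals1 were both lower in HSC. The slope of HSC minus that of HPC-2 was called higher for 4 of the 12 (Rpl29, Tmem167, Gm15658 and Pfdn1). In that comparison 12.2% of genes were called, and 11.3% were called higher.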

How the data were processed

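The authors deposited 1 table of raw read counts per gene for the 95 libraries. Per the submitters' processing notes, the tools were Trimmomatic 0.36, HISAT2 2.0.5, Picard and featureCounts on GRCm38/mm10, while neither the strand setting nor the annotation release is given in the sources used here. Groups came from the labels: 2 titles reading 10k were placed at 10 weeks, and for HPC-2 at 3 weeks replicate 1 the title was followed over a treatment label of untreated. Counts were tested with edgeR 4.0.16 in R 4.3.3 (quasi-likelihood test, TMM scaling, filterByExpr, Benjamini-Hochberg adjustment over all genes tested, threshold 0.05), in 1 fit for each population, 1 for steady state and 1 for the 72 transplanted libraries. The fits with the short-transcript share or the replicate block, and the leave-one-out fits of the transplanted libraries, used the dispersion trend of the fit without them. The fits and the correlations were tested on simulated data, where false calls were above the nominal share in the comparison of 8 small groups with 1 larger steady-state group, nearly all of them lower, and to a lesser degree over the weeks. Correlations used log2(CPM + 1), Spearman's rho, and permutation tests with 100000 resamples (2-sided, scipy 1.17.1). Named genes were Plac8, the 12 genes with the highest and the 6 with the lowest rho in HSC among genes of at least 10 CPM, the family, the 2 nearest protein-coding genes on each side, the sort genes and up to 4 members of a list with the smallest p. Plac8, the lists and the rules were chosen with earlier results of these data known, and the short-transcript share, partial correlations and the relations with the sort genes were added after seeing the data. Alternatives were DESeq2 1.42.0, RLE scaling, no filter, the replicate block, and leaving out each library, the libraries of few genes or the near-identical ones (chi-square per degree of freedom under 10). Counting error follows from the depth, and intervals for single values were not needed. Some of the genes named by the rule are not reported here.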

Additional observations from a re-analysis of the deposited data

Results flagged for a closer look

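One library stood apart from its group. HPC-1 steady-state replicate 3 had 7466 CPM of Plac8, the highest of the 95 libraries, and its gap to the next library was 0.551 of the range of the 8 libraries, above the limit of 0.526 for a group of that size. Chance flags about 1 in 20 groups, and 6 such tests were made (the Plac8 level and the short-transcript share in the 3 steady-state groups). Its short-transcript share was 17.2%, the highest of its group, and 13204 genes were detected in it. Without it the HPC-1 steady-state mean was 2847 CPM in place of 3424, and the HPC-1 difference between the weeks and steady state was -0.22 in place of -0.48. Its part in the group mean beyond these values was not tested.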

How the results depend on the processing

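With the transplanted libraries as 1 group, the HPC-2 difference from steady state turned from -0.10 to 0.10, and the genes called against steady state went from 755, 190 and 155 in HSC, HPC-1 and HPC-2 to 0, 2 and 0. With the short-transcript share as a covariate the HPC-1 difference from steady state turned from -0.48 to 0.018, the HPC-1 slope of -0.27 passed the test, and the difference of slopes between HSC and HPC-2 turned from 0.62 to -0.50. Without a filter on low counts that difference of slopes was 0.56 and passed (adjusted p of 0.00816 in edgeR), while RLE scaling (adjusted p of 0.890) and DESeq2 (adjusted p of 0.629) gave 0.18. The replicate block gave the HPC-2 slope as -0.76 (adjusted p of 0.0487) and changed no other call of Plac8. It moved the HPC-1 difference from steady state from -0.48 to -0.87 (adjusted p of 0.861 in edgeR) and the HPC-2 difference from -0.10 to -0.41, and the genes called against steady state to 0 in each population. Same-numbered libraries of different weeks in 1 population had a mean correlation of deviations of 0.013 in HSC, 0.076 in HPC-1 and 0.024 in HPC-2. Not every such pair was over 0.1, so under the rule used they were not treated as pairs. Libraries of different populations from the same week or from steady state were not compared in this way. Whether they are paired was not tested, and the main population comparisons treat them as unpaired. From HPC-2 steady-state replicate 2 on, the sample numbers in the labels go with the next higher replicate of HSC and HPC-1, which the replicate block did not follow. In HPC-1, 28 of 84 same-numbered pairs were over 0.1 and 16 of 24 libraries were nearest to their own number, against 6 and 11 in HSC and 15 and 7 in HPC-2, a hint from the data and not from the design. Over fits that leave out 1 library each, the HPC-2 difference from steady state ran from -0.31 to 0.22 and the HPC-2 slope from -0.96 to -0.68. Without HPC-2 steady-state replicate 7 the first was 0.04. Of the 12 genes that followed Plac8, 2 stayed among the first 100 as deviations from the group means, and 6 without the libraries of few genes or without steady state. Given the short-transcript share, their median correlation was 0.32 in HPC-1 and -0.11 in HPC-2. Counts of called genes also moved with the tool: DESeq2 called 3094, 3921 and 2901 genes in the 3 population comparisons over the weeks, against 1243, 1388 and 1293 by edgeR, 1084 against 11 for the HSC slope, 2070 against 142 for the HPC-2 slope, and 258 against 3 for the steady-state comparison of the progenitors. The HPC-2 slope called from 1 to 804 genes as single libraries were left out. Without the near-identical libraries, 1544 in place of 3 and 1574 in place of 151 genes were called at steady state between HPC-1 and HPC-2 and between HSC and HPC-2, and 0 for the HPC-2 slope and the HPC-2 difference from steady state. The cause of these changes was not tested. Every library had at least 267 Plac8 counts, so the precision rests on the spread between the 3 libraries of a week and not on depth.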
